A study of Mus musculus with 6 samples.

Results

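The genes described are 9 that handle glucose and glycogen in hepatocytes, namely Pcx, Pck1, Fbp1, G6pc, Slc2a2, Pklr, Gys2, Ppp1r3c and Pygl. They were chosen by name and function, with earlier results of these data known, among the 19938 genes that had a probe set with exactly 1 gene symbol. Each of the 9 had 1 such probe set, so no choice between probe sets was needed. They were measured in liver from 3 ARSB-null mice and 3 control mice, with 1 array per liver. ARSB-null mice are homozygous for a deficiency of arylsulfatase B, a lysosomal sulfatase that acts on the glycosaminoglycan chains chondroitin 4-sulfate and dermatan sulfate, and came from a colony that the investigators bred from heterozygous animals. The controls were C57BL/6J mice. All animals were male, 12 weeks old and untreated, and the labels give C57BL/6J as the background strain of both groups. The mice of each group are numbered 4, 5 and 6. The methods describe standard chow and do not say whether food was restricted. The sources used here give neither the hour of death nor any fast before it, and the sources do not describe the controls as littermates.

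The liver keeps blood glucose steady between meals. After a meal it takes up glucose, stores it as glycogen and breaks part of it down to pyruvate, under insulin and the glucose-sensing factor encoded by Mlxipl. During a fast it breaks glycogen down and makes glucose from lactate, amino acids and glycerol, under glucagon and glucocorticoids. Transcripts of several of the enzymes follow these hormones closely, Pck1 and Pklr in opposite directions.

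The promoters of 2 of the genes, Pck1 and Ppp1r3c, are shown, each of which held a match to a short motif searched for. Promoter activity was not measured on the arrays. The windows come from RefSeq (GRCm38.p6) and run from 250 bases before to 50 after the annotated start. Of the 9 genes, 8 had at least 1 window, 10 windows in all, and the other is Gys2. Both strands were searched for ACGTCA, the core of the cAMP response element, for TGTTTAC, a forkhead motif, and for CACGTG, an E box. ACGTCA was in 1 of the 10 windows, that of Pck1, against 7.51% of all 32851 windows. CACGTG was in 2 of the 10, that of Ppp1r3c and 1 of the windows of Pcx, against 7.15%. TGTTTAC was in 0 of the 10, against 3.65%. The motifs do not overlap each other in the windows shown, and the capitals mark them.
Pck1 (chr2:173152823-173153122, + strand): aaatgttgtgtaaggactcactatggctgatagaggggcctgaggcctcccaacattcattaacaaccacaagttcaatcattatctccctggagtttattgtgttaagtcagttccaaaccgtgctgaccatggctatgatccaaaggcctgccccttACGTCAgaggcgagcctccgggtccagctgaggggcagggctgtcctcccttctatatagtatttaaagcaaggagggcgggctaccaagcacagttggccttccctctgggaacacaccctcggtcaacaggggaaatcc
Ppp1r3c (chr19:36736555-36736854, - strand): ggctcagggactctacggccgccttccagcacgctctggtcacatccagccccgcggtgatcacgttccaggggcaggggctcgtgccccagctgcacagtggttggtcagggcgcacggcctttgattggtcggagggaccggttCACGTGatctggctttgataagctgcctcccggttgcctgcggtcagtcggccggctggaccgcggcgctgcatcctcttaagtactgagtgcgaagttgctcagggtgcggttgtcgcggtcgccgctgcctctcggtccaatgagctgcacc
In these windows ACGTCA began 91 bases before the start of Pck1 and CACGTG 104 bases before the start of Ppp1r3c. These are matches of letters, and binding was not measured.

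The transcript of the deficient gene was read first. Arsb had log2 signals from 7.46 to 7.64 in ARSB-null livers and from 10.21 to 10.23 in controls, a 6.23-fold lower level without the enzyme (adjusted p = 0.000639 from limma). Over all 35556 probe sets, 7 were past an adjusted p of 0.05, which is 0.0197% of them. In the principal components over probe sets with 1 symbol, the first component (39.7% of the variance) set the 2 arrays numbered 4 apart from the other 4, while the genotypes separated on the second (27.1%). Of 18 hepatocyte markers 15 were measured, and they were bright in every liver: their mean log2 signal ran from 13.41 to 13.46 in ARSB-null livers and from 13.29 to 13.42 in controls, with 0 of the 15 past an adjusted p of 0.05 by limma and 0 at an unadjusted p under 0.05. The median of each array was at most 6.60. The 9 genes of glucose and glycogen metabolism were all bright, with mean log2 signals from 9.75 to 13.39, above those of 88.2% to 99.6% of all probe sets.

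No difference between ARSB-null and control liver was detected in any of the 9 genes. By limma, 0 of the 9 were past an adjusted p of 0.05 (adjusted p from 0.924 to 0.998), and 0 were past an unadjusted p of 0.05, against 2.75% of all probe sets that were higher and 3.19% that were lower in ARSB-null liver at that threshold. A one-way analysis of variance for each gene, the test that the methods name, also called 0 of the 9, adjusted or unadjusted. The mean was higher in ARSB-null liver for 5 of the genes and lower for 4, and the median log2 difference, ARSB-null minus control, was 0.01, beside -0.02 over all 19938 genes. The median of the 9 was -0.02 with arrays centred on their medians, and ran from -0.04 to 0.10 leaving out single arrays. The estimated fold changes ran from 0.792 for Pklr to 1.16 for Pck1. All 9 of the 95% intervals held 1, and all 9 lay within 2-fold in either direction. For 8 of the 9 the interval lay within 1.5-fold in either direction, and that of Pklr reached 1.74-fold lower. These limma intervals take 1 spread for both groups. The SD of Pklr was 0.40 in ARSB-null and 0.02 in control liver, so its bound rests on a shared spread that its values do not show. Its standard error was 0.19 by limma and 0.23 by the analysis of variance. Changes inside these intervals cannot be told from 0 here.

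**Figure D1:**
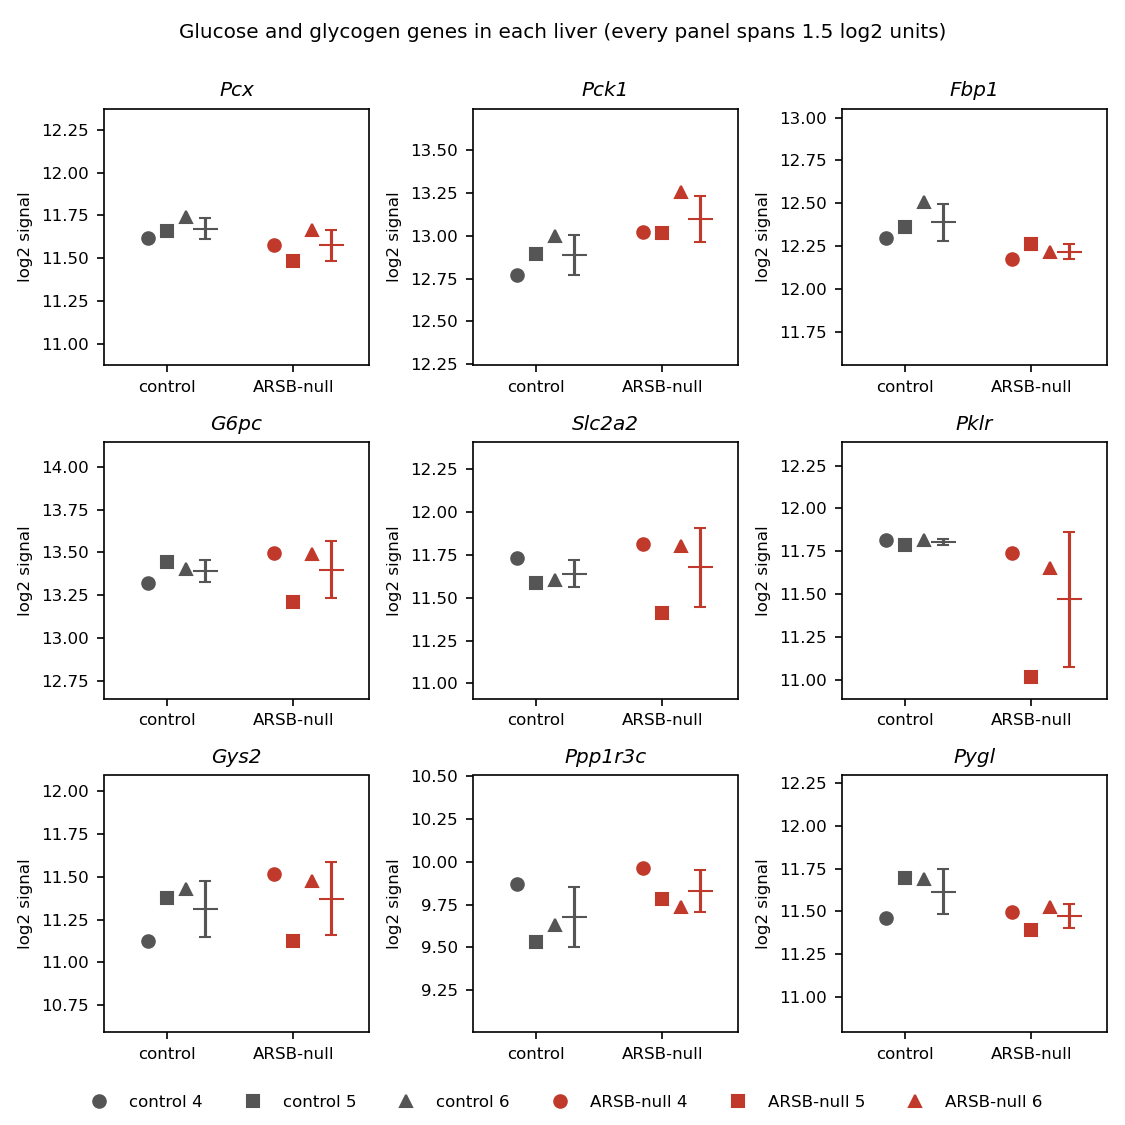
Log2 signal (vertical axis) of each gene in the 3 control (grey) and 3 ARSB-null (red) livers; symbols give the mouse number, and bars with caps are the mean and SD (n = 3). Each panel spans 1.5 log2 units around the gene's own mean, and the widest spread is that of Pklr in ARSB-null liver, from 11.02 to 11.74.

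Of the 4 enzymes that lead from pyruvate to free glucose, the mean was higher in ARSB-null liver for 2 and lower for 2. Pcx encodes pyruvate carboxylase, the mitochondrial enzyme that makes oxaloacetate from pyruvate. Its log2 signal was 11.58, 11.49 and 11.67 in livers 4, 5 and 6 of the ARSB-null mice, and 11.62, 11.66 and 11.74 in the controls in the same order. The groups overlapped, since the ARSB-null liver numbered 6 lay above both lower controls, and the log2 difference was -0.10 (95% interval -0.33 to 0.14, adjusted p = 0.988 from limma).

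Pck1 encodes the cytosolic phosphoenolpyruvate carboxykinase, which turns oxaloacetate into phosphoenolpyruvate and is a classic fasting-induced enzyme of the pathway. On the log2 scale it read 13.02, 13.02 and 13.26 in ARSB-null livers, against 12.77, 12.89 and 13.00 in controls. All 3 ARSB-null livers were above all 3 controls, by a margin of 0.02 between the nearest livers. The mean was 13.10 ± 0.14 (SD, n = 3) against 12.89 ± 0.12 (SD, n = 3), a ratio of 1.16 (95% interval 0.954 to 1.40, adjusted p = 0.924 from limma).

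Fbp1, the fructose-1,6-bisphosphatase of liver and kidney, stood the other way. Its log2 signal was 12.17, 12.27 and 12.22 in ARSB-null livers, against 12.30, 12.36 and 12.51 in controls. Every ARSB-null liver was below every control, with 0.03 between the nearest livers. The control signal was 1.13-fold that of ARSB-null liver, with a 95% interval of 0.953 to 1.33 (adjusted p = 0.948 from limma).

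G6pc encodes the catalytic subunit of glucose-6-phosphatase, which releases free glucose as the last step of both gluconeogenesis and glycogen breakdown. On the log2 scale it read 13.50, 13.21 and 13.49 in ARSB-null livers, against 13.32, 13.44 and 13.41 in controls. The lowest and the highest of the 6 livers were both ARSB-null, and the means were nearly equal, at 13.40 ± 0.16 and 13.39 ± 0.06 (SD, n = 3 each). The ratio was 1.01 (95% interval 0.831 to 1.22), with an adjusted p of 0.998 from limma. The sign turned when single arrays were left out and when arrays were centred on their medians.

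Slc2a2, the facilitative glucose transporter through which glucose enters and leaves hepatocytes, had a log2 signal of 11.82, 11.41 and 11.80 in ARSB-null livers, against 11.73, 11.59 and 11.60 in controls. As with G6pc, the ARSB-null liver numbered 5 was the lowest of all and the one numbered 4 the highest. The log2 difference was 0.04 (95% interval -0.29 to 0.36, adjusted p = 0.995 from limma), with a sign that turned when single arrays were left out.

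Pklr encodes the liver pyruvate kinase, which catalyses the last step of glycolysis and is induced by glucose and insulin. Its log2 signal was 11.74, 11.02 and 11.65 in ARSB-null livers, against 11.81, 11.79 and 11.82 in controls. The controls were the most alike of any gene and group here (SD 0.02), and the ARSB-null livers the least alike (SD 0.40), because 1 of them, the liver numbered 5, lay far under the rest. All 3 ARSB-null livers were below all 3 controls, by 0.04 between the nearest. The ratio of ARSB-null to control was 0.792 (95% interval 0.575 to 1.09, adjusted p = 0.934 from limma). Without the ARSB-null liver numbered 5, the log2 difference went from -0.34 to -0.11 (adjusted p = 0.978 from limma).

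Among the 3 glycogen genes, the ARSB-null mean was the higher for 2 and the lower for 1. Gys2, the liver glycogen synthase, had a log2 signal of 11.52, 11.13 and 11.48 in ARSB-null livers, against 11.12, 11.38 and 11.43 in controls. The spread within each group exceeded the log2 difference of 0.06 (95% interval -0.29 to 0.41, adjusted p = 0.993 from limma), and its sign turned when the mice numbered 4 were left out.

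Ppp1r3c encodes a subunit that brings protein phosphatase 1 to glycogen, where it activates glycogen synthase. On the log2 scale it read 9.97, 9.78 and 9.74 in ARSB-null livers, against 9.87, 9.53 and 9.63 in controls. The groups overlapped through the control numbered 4, and the ratio was 1.11 (95% interval 0.900 to 1.37, adjusted p = 0.977 from limma).

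Pygl, the liver glycogen phosphorylase, had a log2 signal of 11.50, 11.39 and 11.52 in ARSB-null livers, against 11.46, 11.70 and 11.69 in controls. Here also the control numbered 4 lay among the ARSB-null livers. The log2 difference was -0.14 (95% interval -0.40 to 0.11, adjusted p = 0.973 from limma).

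**Figure D2:**
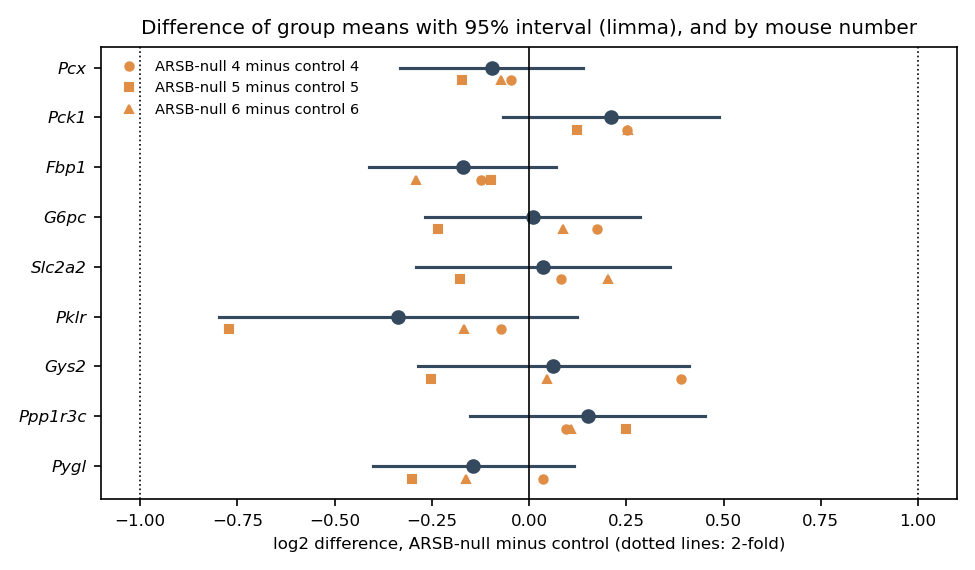
Log2 difference, ARSB-null minus control (horizontal axis), for each of the 9 genes: dark points are differences of group means with 95% intervals from limma, and orange symbols are the differences between mice of the same number. All 9 intervals cross 0 and lie inside the dotted lines at 2-fold.

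The groups did not overlap for 3 of the 9 genes, Pck1 (higher in ARSB-null) and Fbp1 and Pklr (lower). Over all probe sets the groups did not overlap for 11.9%, 5.14% higher and 6.78% lower, and over the 19938 genes for 4.73% higher and 8.32% lower. For each of the 3 genes the exact permutation test over the livers gave p = 0.1 (two-sided), the smallest that 3 mice against 3 allow, and for the other 6 it gave p from 0.3 to 1. Between mice of the same number, Ppp1r3c was higher in the ARSB-null mouse in all 3 pairs and Pcx was lower in all 3. For Pck1, Fbp1 and Pklr the lack of overlap fixes the sign in any pairing, so their pairs add nothing. The share of all genes with the same sign in all 3 pairs was not computed. With the replicate number as a block the smallest adjusted p of the 9 was 0.604 (Pck1, limma), where 0.0112% of all probe sets were past the adjusted threshold.

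Among the ARSB-null livers, the one numbered 5 had the lowest signal for 7 of the 9 genes, all but Fbp1 and Ppp1r3c, although for Pck1 it was level with the liver numbered 4. It was the lowest of all 6 livers for 5 of them, namely G6pc, Slc2a2, Pklr, Pcx and Pygl. Of the 2407 genes at least as bright as Ppp1r3c, 20.9% had the lowest signal of the ARSB-null livers there, and 11.5% the lowest of all 6. This liver was singled out after its values had been seen. The other livers were the lowest for at most 2 of the 9 genes each.

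**Figure D3:**
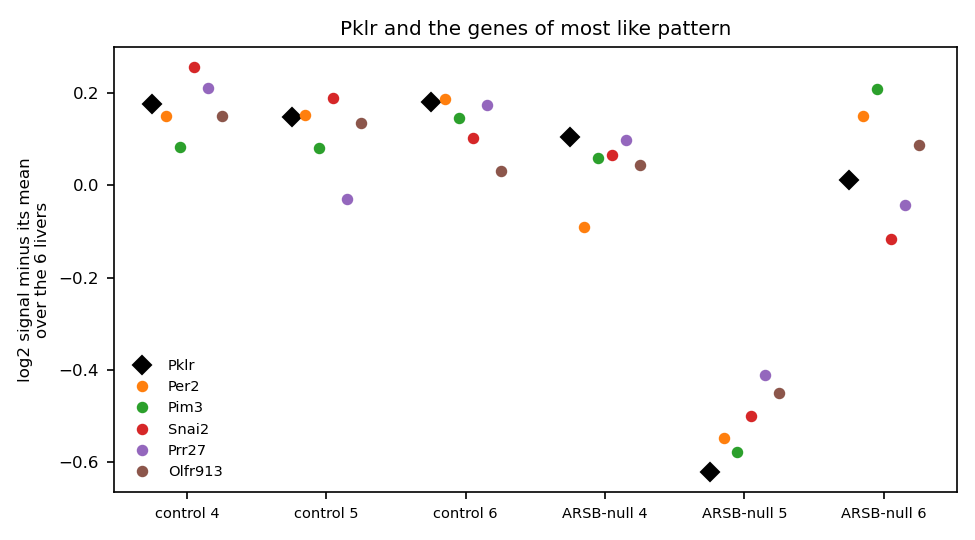
Log2 signal of Pklr (black diamonds) and of the 5 genes whose profile lay nearest to it, each minus its own mean over the 6 livers (vertical axis), in each liver (horizontal axis). All 6 genes are lowest in the ARSB-null liver numbered 5, which choosing genes by nearness to Pklr favours.

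Pklr had the widest range of the 9 genes over the 6 livers (0.80 on the log2 scale). The genes of most like pattern were found by the mean absolute distance between profiles centred on their own means, over the 6 arrays. Per2, a repressor of the circadian clock, was the nearest, at a distance of 0.07 log2 units, with a log2 signal of 7.72, 7.26 and 7.96 in ARSB-null livers, against 7.96 to 7.99 in controls. Pim3, a serine/threonine kinase, Snai2, a transcriptional repressor, Prr27 and Olfr913, an olfactory receptor gene, followed at 0.08 each. Prr27 and Olfr913 were below the array median in every liver. All 5 shared with Pklr a lowest value in the ARSB-null liver numbered 5, which choosing genes by nearness to the Pklr profile favours. None of the 5 was past the threshold between the groups (adjusted p from 0.843 to 0.985 from limma).

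Beyond the 9 genes, 151 genes of the same pathways and of their control were listed by function, of which 135 had a probe set with 1 symbol. The others were not analysed here. By limma, 0 of the 135 were past an adjusted p of 0.05 (smallest adjusted p 0.378), beside 0.0251% of the 19938 genes. At an unadjusted p under 0.05, 3 were higher (2.22%) and 9 lower (6.67%) in ARSB-null liver, beside 2.0% higher and 3.8% lower over the 19938 genes. This count of 12 was 19 by the one-way analysis of variance, 6 without the control numbered 5, 7 without the control numbered 6, and 18 without the control numbered 4. With the replicate block it was 15. The median log2 difference of the 135 was -0.04. When single arrays were left out, the medians of the gluconeogenesis, glycolysis, transcription factor, and insulin, glucagon and AMPK signalling lists changed sign. Those of the glycolysis and transcription factor lists also changed sign with centred arrays.

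Among 14 other measured enzymes and carriers of gluconeogenesis, 0 were higher and 1 was lower at the unadjusted threshold, with a median log2 difference of -0.01. The lower one was Slc25a25, a carrier of ATP-Mg and phosphate across the inner mitochondrial membrane. It reached 9.49 on the log2 scale in ARSB-null liver and was at least 9.75 in every control, and differed by -0.43 (adjusted p = 0.528 from limma). Got1, the cytosolic aspartate aminotransferase, ran from 12.88 to 13.20 in ARSB-null livers and from 12.66 to 12.78 in controls (0.28, adjusted p = 0.840 from limma). Mpc1, a subunit of the mitochondrial pyruvate carrier, differed by 0.18 (adjusted p = 0.949 from limma). Neither of the last 2 overlapped between the groups.

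Of 20 measured genes of glycolysis and its switches, 0 were past the unadjusted threshold in either direction by limma, and the median log2 difference was 0.02. The 3 with the smallest p were Pfkp, the platelet type of phosphofructokinase (0.32), Hk3, a hexokinase of myeloid cells (0.24), and Dlat, a subunit of pyruvate dehydrogenase (0.21), with adjusted p from 0.884 to 0.943 from limma. Pfkp was dim, with log2 signals from 5.98 to 6.72 over the 6 livers, and Hk3 had 6.46 to 6.96. The groups overlapped for each of these 3 genes.

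Of 28 other measured genes of glycogen handling, 1 was higher and 3 were lower at the unadjusted threshold, with a median of -0.06. Ppp1r3g and Ppp1r3d encode, like Ppp1r3c, subunits that target protein phosphatase 1 to glycogen, and they stood in opposite directions. Ppp1r3g had a log2 signal of 8.23, 8.17 and 8.14 in ARSB-null livers, against 8.54, 8.74 and 8.55 in controls, a difference of -0.43 (adjusted p = 0.501 from limma). Ppp1r3d had 7.44, 7.30 and 7.11 against 7.01, 6.97 and 6.92, a difference of 0.31 (adjusted p = 0.791 from limma). Phkb, the beta subunit of the phosphorylase kinase that activates glycogen phosphorylase, differed by -0.32 (adjusted p = 0.744 from limma), and Pgm2, a phosphoglucomutase, by -0.25 (adjusted p = 0.826 from limma). The groups did not overlap for any of these 4 genes.

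In the pentose phosphate pathway 7 of 8 genes were measured, and the median log2 difference was -0.10. It was -0.25 without the control numbered 4, -0.05 without the control numbered 5 and -0.02 without the control numbered 6. Pgd, the 6-phosphogluconate dehydrogenase, was 9.88, 9.77 and 10.09 in ARSB-null livers, against 10.13, 10.61 and 10.33 in controls (-0.44, adjusted p = 0.761 from limma), and was the only one of the 7 past the unadjusted threshold. Rpe differed by -0.21 and Tkt (transketolase) by -0.16, with adjusted p of 0.918 and 0.985 from limma.

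Of 23 measured transcription factors and coregulators of these genes, 1 was higher and 1 lower at the unadjusted threshold. Srebf1, which encodes the insulin-responsive SREBP-1, was 10.38, 10.25 and 10.48 in ARSB-null livers, against 10.80, 10.91 and 10.71 in controls (-0.43, adjusted p = 0.545 from limma). Nr1i3, the nuclear receptor CAR, was 9.98, 9.97 and 10.77 against 9.52, 9.76 and 9.75 (0.56, adjusted p = 0.827 from limma). Ppargc1a, the coactivator that drives gluconeogenic genes in a fast, was 8.86, 9.02 and 9.43 against 8.35, 8.73 and 8.88, overlapping between the groups (0.45, adjusted p = 0.843 from limma). With the replicate block its adjusted p was 0.441 (limma).

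Of 24 measured genes of insulin, glucagon and AMPK signalling, 1 was higher and 1 lower at the unadjusted threshold. Trib3, a pseudokinase that binds AKT, was 7.72, 7.42 and 7.49 in ARSB-null livers, against 7.18, 7.07 and 6.91 in controls (0.49, adjusted p = 0.568 from limma). Prkaa2, a catalytic subunit of AMPK, the kinase that senses low cellular energy, ran from 10.48 to 10.64 in ARSB-null livers and from 10.89 to 11.06 in controls (-0.38, adjusted p = 0.604 from limma). Prkaa1, the other catalytic subunit, differed by -0.26 (adjusted p = 0.843 from limma), also without overlap.

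Fasting-induced and feeding-induced genes of the liver were listed because the time since the last meal is not given. Of 14 measured fasting-induced genes, the ARSB-null mean was the higher for 10 and the lower for 4, the median log2 difference was 0.10 and 0 were past the unadjusted threshold by limma. With the replicate block, 2 of them, Ppargc1a and Acot1, an acyl-CoA thioesterase, were higher at that threshold. Without the control numbered 4 the median was 0.06. The 3 with the smallest p were Ppargc1a (above), Cyp4a14 (0.32) and Angptl4 (0.42). The 4 with a lower mean were Pdk4 (-0.32), Tat (-0.17), Asns (-0.09) and Plin2 (-0.01). The difference of Angptl4 was 0.06 without both arrays numbered 4, as the control numbered 4 had a log2 signal of 8.79 and the other controls 9.64 and 9.82. Of 10 measured feeding-induced genes, 10 were lower on average in ARSB-null liver, the median was -0.24 and 3 were lower at the unadjusted threshold. They encode mainly enzymes and regulators of fatty acid synthesis, and Pklr and Srebf1 are on this list too. Me1, the malic enzyme, was 11.91, 11.81 and 11.84 in ARSB-null livers, against 12.27, 12.75 and 12.69 in controls (-0.72, adjusted p = 0.378 from limma). Thrsp, a regulator of lipogenesis, was 11.84, 10.64 and 11.66 against 11.78, 12.54 and 12.27 (-0.82, adjusted p = 0.838 from limma) and, like Pklr, was lowest in the ARSB-null liver numbered 5. With the replicate block Thrsp was no longer past the unadjusted threshold. Without that liver, 9 of the 10 had a lower mean and the median was -0.08, without the control numbered 5 it was -0.12, and without both arrays numbered 4 it was -0.43.

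**Figure D4:**
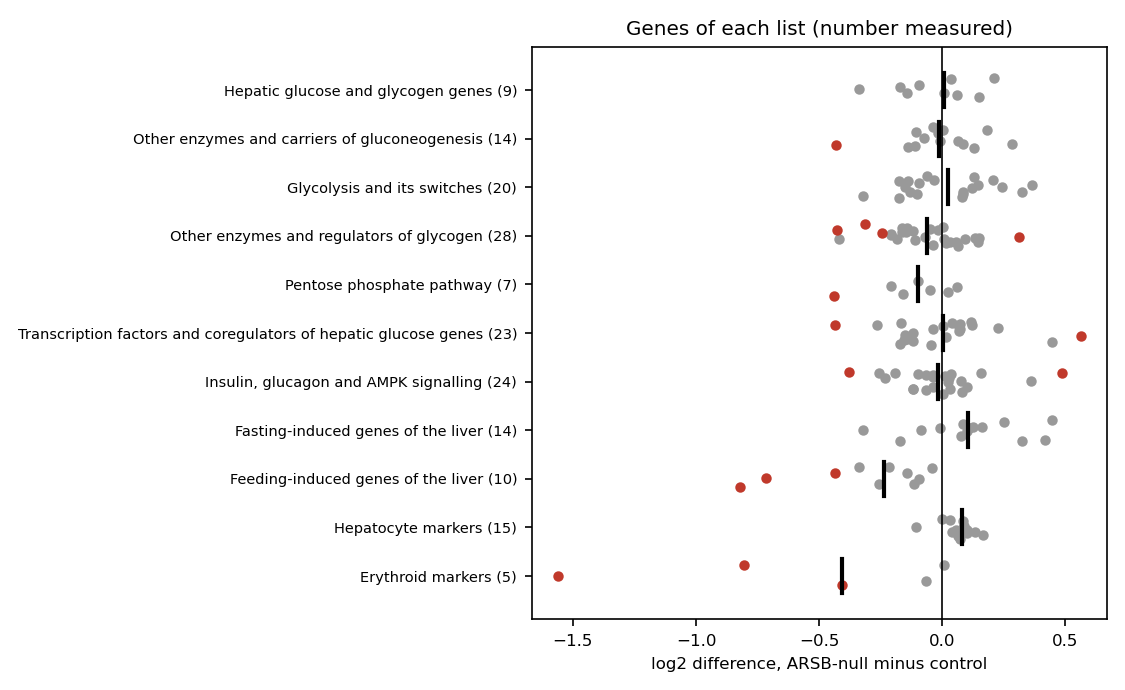
Log2 difference, ARSB-null minus control (horizontal axis), for each measured gene of the lists on the vertical axis; red points have an unadjusted p under 0.05 from limma, no point has an adjusted p under 0.05, and black bars are list medians. The members' median is 0.01, that of the feeding-induced genes -0.24 and that of the erythroid markers -0.41.

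Markers of other cells were read in the same arrays, since whole liver holds them all, and less RNA per cell and fewer cells of a type cannot be told apart in such tissue. Of 5 measured erythroid markers 3 were lower at the unadjusted threshold (Slc4a1, -1.56, Alas2, -0.81, and Epb42, -0.41; adjusted p of 0.224, 0.237 and 0.806 from limma), and their summed linear signal ran from 1338 to 1683 in ARSB-null livers and from 2507 to 2937 in controls. Most of this sum comes from Alas2, the brightest of the 5 (log2 signals from 10.02 to 11.18), so it is not a result for the whole list. The remaining erythroid markers, Klf1 (0.01) and Hemgn (-0.07), differed little. Fitted among probe sets with 1 symbol alone, Slc4a1 and Alas2 had adjusted p of 0.0208 and 0.0407 from limma, and Jchain, the joining chain of polymeric antibodies, had 0.00669, where 0.275% of the probe sets were past the threshold. The summed signal of 8 neutrophil markers was also lower without overlap (between 408 and 446 against 456 and 494). These markers were dim, with a mean log2 signal of at most 5.87 in any liver, below the median of every array. Of the 8, 2 were lower at the unadjusted threshold. Their median log2 difference was -0.17, and -0.06 without the ARSB-null liver numbered 5. The summed signal of 4 cholangiocyte markers was lower without overlap too (between 523 and 577 against 622 and 671). Of these 4, Sox9 was lower at the unadjusted threshold (-0.35), while Krt19 (0.02) and Epcam (0.08) had higher means, and their median was -0.05. Of the hepatocyte markers 14 of 15 had a higher mean in ARSB-null liver, by a median of 0.08, which was 0.03 without the control numbered 4, and without both arrays numbered 4 the mean was higher for 10 of them. Their summed signal was between 181094 and 188301 against 169174 and 180885. The summed signals of macrophage, lymphocyte, and endothelial and stellate cell markers, and of markers of pancreas, muscle and fat, overlapped between the groups, with calls in both directions at the unadjusted threshold for some. Of 15 macrophage markers, Cd68 (0.53) and C1qa (0.39) were higher and Adgre1 and Csf1r lower. Of 10 lymphocyte markers, Jchain was higher (1.30, adjusted p = 0.0990 from limma, without overlap) and Cd79a (-0.40) and Ms4a1 (-0.49) lower. Lyve1, of the endothelial and stellate markers, was lower (-0.31). The part of these shifts in the values of the glucose and glycogen genes was not tested.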

How the data were processed

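Liver from 3 ARSB-null and 3 control mice was hybridized to whole-transcript mouse gene arrays after biotin labelling. The methods name a later generation of this array than the annotation used here, whose identifiers match the deposited rows, and the gene symbols rest on that match. The deposited values are on a log2 scale, with 1 signal for each probe set on each array, after quantile normalization and summarization by the authors. RMA and Partek are named in the submitters' processing notes, with no version. Quantile normalization hides a change shared by most genes. There are no detection calls, and the number of arrays limits the precision. Of 35556 probe sets, 21789 had 1 symbol in GEO's platform annotation, 1621 had several and 12146 were not listed; 0 symbols changed when 21698 of them were matched by gene identifier to RefSeq. Where a gene had more than 1 probe set, the brightest on average was taken.

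All probe sets were fitted by limma (version 3.58.1, R 4.3.3; lmFit and eBayes, two-sided) with Benjamini-Hochberg adjustment over all of them. Fold changes are 2 to the power of differences of mean log2 signals. Lists were described by counts and medians. The procedure was tested on simulated data, with noise independent between arrays and shifts larger than any difference among the 9 genes. That simulation gives no measure of power for these genes. The members and lists were chosen with earlier results of these data known. Named were all 9 members, of each pathway list the 3 genes of smallest p, and the 5 genes nearest in pattern to the member of widest range; Pgm2, the other genes counted as lower or higher, and the markers were named after their values were seen.

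Whether the mouse numbers pair the animals was checked by correlating, across probe sets, the deviations from the group means: 0.396 for the mice numbered 4, 0.159 for 5 and 0.193 for 6, with 0.220 between ARSB-null 6 and control 5. The 3 same-number values exceed 0.1, so a fit with the mouse number as block was also made. What mice of 1 number share is not in the labels. P-values set a difference between the groups against the spread between these animals, a spread that limma shares in part over all probe sets. Alternatives were the analysis of variance, probe sets with 1 symbol, brighter probe sets, centred arrays, another prior, the block, the mean of a gene's probe sets and leaving out each array; leaving out both arrays numbered 4 was chosen after seeing the data.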

Additional observations from a re-analysis of the deposited data

How the results depend on the processing

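Of the 9 glucose and glycogen genes, 0 were past an adjusted p of 0.05, and 0 past an unadjusted one, under every alternative run; the smallest unadjusted p was 0.0546 (Pklr without the ARSB-null mouse numbered 4). Of 126 values of single genes under alternatives, 116 kept their sign and 10 reversed, 5 for G6pc, 3 for Gys2 and 2 for Slc2a2. Many of the 116 could not turn. The analysis of variance, the fits of fewer probe sets, the other prior, the block and the mean over probe sets leave each difference unchanged. Only centring the arrays and leaving arrays out could turn a sign, so the 116 do not measure robustness. The log2 difference of G6pc was -0.023 with arrays centred on their median and -0.074 with both arrays numbered 4 left out, and ran from -0.040 to 0.10 leaving out single arrays; that of Gys2 was -0.10 with both arrays numbered 4 left out and ran from -0.032 to 0.18 leaving out single arrays; that of Slc2a2 ran from -0.034 to 0.17. Leaving out single arrays also moved values that kept their sign: Pck1 was 0.13 without ARSB-null 6, Fbp1 -0.11 without control 6, Pcx -0.05 without ARSB-null 5 and -0.06 without control 6, Pygl -0.22 without control 4, Pklr -0.11 without ARSB-null 5, and Ppp1r3c 0.08 without ARSB-null 4 or control 5 and 0.25 without control 4. With the replicate block, which pairs mice of the same number, the differences are unchanged and no adjusted call among the 9 genes or the 135 pathway genes changed; the smallest adjusted p of the 9 was then 0.604, that of Pck1, and no smaller one was found under the other alternatives.

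Over all probe sets, 7 were past the adjusted threshold, against 2 by one-way ANOVA, 60 among probe sets with 1 symbol only, 12 among the brighter ones, 4 with the replicate block, 1 with both arrays numbered 4 left out, and 4 to 7 leaving out single arrays. The pathway genes at an unadjusted p under 0.05 numbered 12, against 19 by ANOVA and 6 to 18 leaving out single arrays. Some of these fits hold fewer probe sets or arrays, and the causes of the changed counts were not tested. Each of the 9 genes has 1 probe set, so the mean over probe sets gave the same differences. Signal over background is not known.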
